A study of Mus musculus with 20 samples.

Results

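The comparison described here is phenobarbital against its vehicle after 28 days of daily dosing, measured in mouse liver. Its members were the 5 arrays titled as phenobarbital and the 5 titled as vehicle at that duration, 10 of the 20 arrays of the series, and the other 10 arrays hold the same comparison after 90 days. All mice were CD1 males, an outbred stock, so that mice of one group differ in genotype. Phenobarbital mice (PB) were given phenobarbital sodium by mouth at 80 mg/kg/day in 10 mL/kg, and vehicle mice (CMC) were given the 0.5% methylcellulose in which the drug was delivered. The left lateral lobe of the liver was frozen on the day after the last dose, and RNA of each of the 5 mice per group went onto an Affymetrix array of its own. Values are log2 intensities made by the authors with RMA, a method that corrects background, aligns the arrays and combines the probes of a probe set, so a difference of 1 is a 2-fold difference in intensity. The question is which liver transcripts, by enzyme family and pathway, differ between treated and vehicle males after 4 weeks.

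In hepatocytes, phenobarbital is the drug most used to switch on CAR, the constitutive androstane receptor (gene Nr1i3). The drug acts upstream of the receptor, through the epidermal growth factor receptor and a phosphatase, and CAR then enters the nucleus, pairs with a retinoid X receptor and binds repeats of the AGGTCA motif near its target genes. The targets known for rodent liver are P450 enzymes of subfamilies 2b, 2c and 3a that oxidise drugs and steroids, the enzymes that conjugate their products, and transporters that export them.

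A linear model of the 10 arrays (limma, 8 residual degrees of freedom) was fitted to 15638 genes, and a gene was called at a p adjusted by Benjamini and Hochberg under 0.05. It called 4 genes higher in PB (0.0256% of the genes tested) and 0 lower (0%). At an unadjusted p under 0.05 the same fit gave 236 genes higher (1.51%) and 140 lower (0.895%). All 5 PB arrays lay above all 5 CMC arrays for 56 genes (0.358%) and below them for 29 (0.185%). The median change over all genes was 0.00, with 49.2% of genes positive. The median standard error of a change was 0.18, from 0.12 at the 10th to 0.37 at the 90th percentile of genes. Rescaling the arrays by cyclic loess turned the split at unadjusted p into 195 higher and 197 lower, so these weaker counts give no balance of directions. In the text below "rose" is used of called genes, and other differences are given as values.

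PB replicate 5 stood apart from the other 9 arrays. Its median correlation with them was 0.897 against 0.968 to 0.987 for the rest, and its score on the first principal component (63.7% of the variance) was -99.1 against -26.9 to 34.9. It was the PB array farthest from the PB median in 10548 genes (67.5%), and without it the median SD of a gene in PB went from 0.29 to 0.17. The hepatocyte markers, among them albumin, summed to a log2 intensity of 17.05 on this array and to 17.25 to 17.47 on the others, while T and NK cell markers summed to 9.32 against 8.47 to 8.70 and B cell markers to 9.14 against 8.28 to 8.83. The floor used to filter genes, set for each array, was 4.26 on PB replicate 5 and 4.01 to 4.11 on the others. In CMC the T and NK cell markers tested averaged 0.21 to 1.95 above the floor, and the B cell markers 0.61 to 2.43. How far the higher floor of PB replicate 5 raised these sums was not tested. In bulk tissue fewer cells of a type and less RNA per cell cannot be told apart. The part of these shifts in marker sums in the results was not tested. Fitting the 9 other arrays called 12 genes higher (0.0767%) and 1 lower (0.00639%), with the same 4 genes among them. At an unadjusted p under 0.05 it gave 311 higher (1.99%) and 222 lower (1.42%), with 146 genes above (0.934%) and 75 below (0.48%) without overlap and 55.4% of genes positive. Leaving out PB replicate 2 brought the calls to 2, and leaving out any of the other 8 arrays gave 3 or 4.

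**Figure D1:**
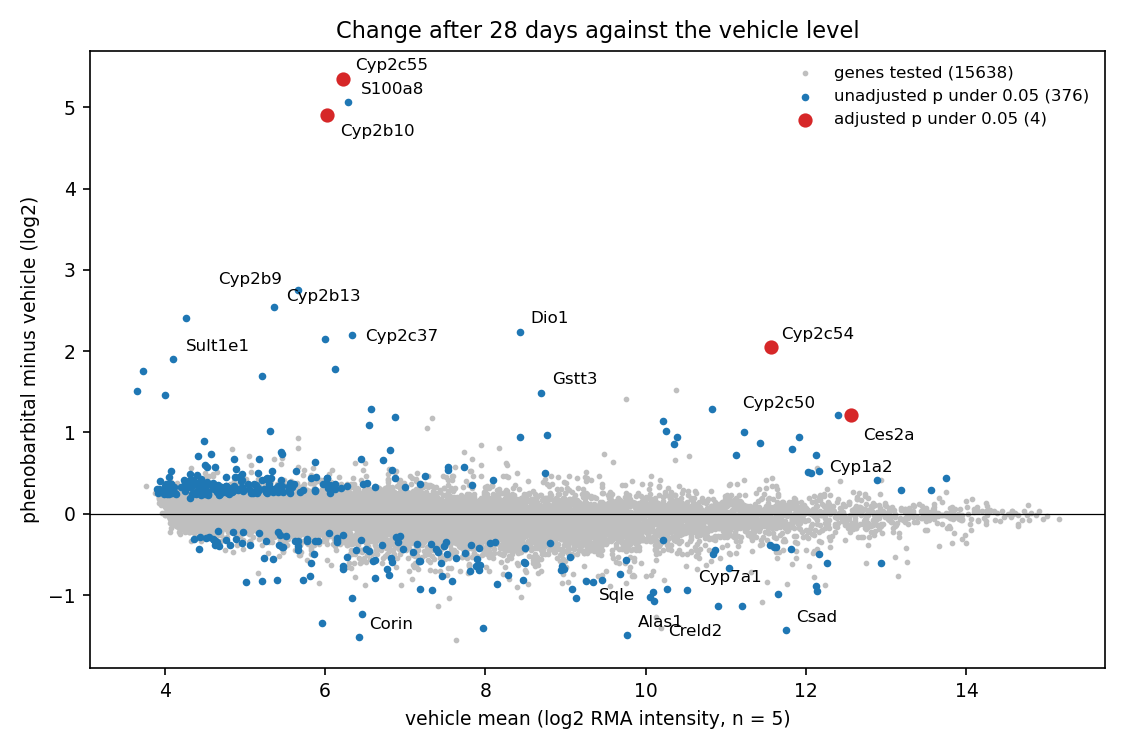
Change of each of the 15638 genes tested (PB minus CMC, log2) against its vehicle mean (log2 RMA intensity, n = 5). Red points are the 4 genes with an adjusted p under 0.05, Cyp2c55, Cyp2b10, Cyp2c54 and Ces2a, and blue points the 376 genes with an unadjusted p under 0.05.

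The receptors did not pass the test at the transcript level. Nr1i3, which encodes CAR, read 10.03, 9.45, 10.10, 10.29 and 8.78 on CMC arrays 1 to 5 and 9.70, 9.94, 9.36, 9.28 and 10.39 on PB arrays 1 to 5. The groups overlapped along their whole range, with means of 9.73 in both and a difference of 0.00 ± 0.32 (SE). The pregnane X receptor gene Nr1i2, whose product shares many targets with CAR, differed by -0.22 ± 0.16, and the retinoid X receptor Rxra by -0.10 ± 0.56. Of 18 genes for receptors and their partners, 0 were called (0.0256% of all genes higher and 0% lower). An unadjusted p under 0.05 by limma was reached by 0 (1.51% of all higher and 0.895% lower). At these shares, 0 of 18 does not set the list apart from other genes. Of the 18, 7 were positive (49.2% of all genes) and the median change was -0.13. This median was 0.14 without PB replicate 5. The small heterodimer partner Nr0b2, a repressor without a DNA-binding domain, differed by 0.37 ± 0.42, or 0.78 without that array (unadjusted p = 0.0106).

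The electron carriers that feed P450 enzymes differed little. Cytochrome b5 (Cyb5a), a membrane carrier for P450s, averaged 14.07 in CMC and 14.25 in PB, a difference of 0.18 ± 0.08, and the heme-binding P450 partner Pgrmc1 differed by 0.13 ± 0.07. Among 7 such genes 5 were positive (49.2% of all genes) and the median was 0.07. The unadjusted threshold was passed by 0, against 1.51% of all genes higher and 0.895% lower. The cytochrome b5 reductase Cyb5r3 differed by 0.07 ± 0.43 over all arrays and by 0.52 without PB replicate 5 (unadjusted p = 0.0393). The P450 reductase gene Por was not analysed here.

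Cyp2c55, a P450 known for oxidising arachidonic acid and for its expression outside the liver, rose the most. On CMC arrays 1 to 5 it read 6.51, 5.71, 7.15, 5.99 and 5.72, and on the PB arrays 11.23, 12.06, 11.02, 11.48 and 12.07. Every PB array lay well above every vehicle array, and PB replicate 5 was the highest of all. The mean went from 6.22 ± 0.61 (SD, n = 5) to 11.57 ± 0.48, a change of 5.35 ± 0.32 (SE), or 40.9-fold (adjusted p = 2.74e-05 by limma). It was called in 22 of the 22 settings tried.

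Cyp2b10, the P450 most used as a marker of CAR activity in mice, rose from 6.03 ± 1.34 (SD, n = 5) to 10.93 ± 1.12. Its CMC values were 6.99, 4.89, 5.85, 7.78 and 4.66 and its PB values 11.68, 11.65, 10.81, 11.49 and 9.03. The groups did not overlap, but the vehicle mice spread from 4.66 to 7.78 and PB replicate 5 was the lowest treated mouse. The change was 4.90 ± 0.66, or 29.8-fold (adjusted p = 0.0403 by limma). Its 3 probe sets gave 5.05, 4.90 and 3.71, all called when tested singly. The call was lost without CMC replicate 1, 2, 3 or 5 or PB replicate 1, 2, 3 or 4 (adjusted p between 0.0636 and 0.204). It was kept without CMC replicate 4 or PB replicate 5 (5.38, adjusted p = 0.00254). Leaving the intensity trend out of the model also lost the call (adjusted p = 0.0689 by limma). Cyp2b10 was called in 13 of 22 settings, with an adjusted p of 0.000512 to 0.204.

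Cyp2b13 and Cyp2b9, close relatives of Cyp2b10 that are known to be higher in female than in male mouse liver, were also higher in PB. Cyp2b13 read 5.26, 5.64, 5.47, 5.31 and 5.13 in CMC and 8.80, 8.67, 7.26, 8.85 and 5.91 in PB. Its vehicle values lay close together, and PB replicate 5 was just above them. The difference was 2.54 ± 0.50 (adjusted p = 0.316 by limma) and 3.03 without PB replicate 5 (adjusted p = 0.00119, with 0.00119 to 0.877 over all settings). Cyp2b9 read 6.33, 5.68, 5.02, 6.31 and 4.96 in CMC and 9.03, 8.72, 7.80, 10.22 and 6.26 in PB, so that PB replicate 5 fell inside the vehicle range. Its difference was 2.75 ± 0.61 over all arrays and 3.28 without that array, where it was among the 13 genes called. Of 4 genes of subfamilies 2a and 2b tested 1 was called (0.0256% of all genes) and 3 had an unadjusted p under 0.05 on the higher side (1.51% of all). The median was 2.64, or 3.16 without PB replicate 5, while Cyp2a12 differed by -0.48 ± 0.58. How far probes of one gene in this family bind the transcripts of another was not tested.

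In the RefSeq gene order Cyp2b10, Cyp2b13 and Cyp2b9 are direct neighbours on chromosome 7. Their promoter windows are shown because these 3 neighbours were higher together and because of the motif that CAR is known to bind. Each window holds the 250 bases before the RefSeq start, in build GRCm38.p6 and read on the strand of the gene, with a match of AGGTCA on either strand in capitals. Cyp2b10 lies at chr7:25897408-25897657, Cyp2b13 at chr7:26061245-26061494 and Cyp2b9 at chr7:26173159-26173408, all on the plus strand.
Cyp2b10: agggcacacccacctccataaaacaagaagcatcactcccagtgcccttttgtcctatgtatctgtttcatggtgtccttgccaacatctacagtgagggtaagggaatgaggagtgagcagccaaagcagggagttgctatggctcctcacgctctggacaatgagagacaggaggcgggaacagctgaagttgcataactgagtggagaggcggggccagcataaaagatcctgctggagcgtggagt
Cyp2b13: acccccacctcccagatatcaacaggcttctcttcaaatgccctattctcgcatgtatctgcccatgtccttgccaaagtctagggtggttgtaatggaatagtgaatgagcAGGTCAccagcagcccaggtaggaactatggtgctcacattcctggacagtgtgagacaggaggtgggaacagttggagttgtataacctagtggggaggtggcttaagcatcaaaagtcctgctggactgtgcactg
Cyp2b9: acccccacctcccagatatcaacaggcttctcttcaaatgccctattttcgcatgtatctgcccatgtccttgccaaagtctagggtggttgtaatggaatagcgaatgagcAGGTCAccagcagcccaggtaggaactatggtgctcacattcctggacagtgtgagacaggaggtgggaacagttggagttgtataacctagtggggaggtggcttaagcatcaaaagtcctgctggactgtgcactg
The windows of Cyp2b13 and Cyp2b9 were identical at 248 of 250 bases (99.2%), and each held 1 AGGTCA motif that begins 138 bases before the start. The window of Cyp2b10 held 0, and it was not aligned with the others. AGGTCA stood in 13.8% of 27025 promoter windows of this length, so that a single match is common. Pairs of AGGTCA or AGTTCA in the same direction, spaced by 4 bases, were found in 6 of the 27025 windows (0.0222%) and in 0 of those printed here. A missing match says only that these letters are not in the window.

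Cyp2c54, a P450 of the hepatic 2c cluster, was the third called gene. It read 12.05, 11.68, 11.05, 12.04 and 10.98 in CMC and 13.79, 13.82, 13.48, 13.63 and 13.32 in PB. The treated mice lay closer together than the vehicle mice, with no overlap. The mean rose from 11.56 ± 0.52 to 13.61 ± 0.21 (SD, n = 5), by 2.05 ± 0.23, or 4.14-fold (adjusted p = 0.0079 by limma). It lost the call without PB replicate 2 (adjusted p = 0.0515), with a range of 3.68e-05 to 0.0515 over all settings.

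Cyp2c37 read 6.66, 6.77, 5.81, 6.07 and 6.37 in CMC and 9.12, 8.70, 8.61, 8.89 and 7.34 in PB. The groups were separate, with PB replicate 5 between the vehicle arrays and the other treated ones. The difference was 2.20 ± 0.32 (adjusted p = 0.0648 by limma). Without that array it was 2.49 (adjusted p = 0.000327, with 7.63e-05 to 0.359 over all settings). Cyp2c50 differed by 1.22 ± 0.22 (12.40 to 13.62) without overlap, and Cyp2c29 by 0.44 ± 0.13, with PB replicate 5 at 13.85 inside the vehicle range of 13.35 to 13.89. Cyp2c65 differed by 1.76 ± 0.32, but its vehicle mean of 3.73 lay 0.33 below the floor used to filter genes, so the size of its change is not exact.

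The Cyp2c genes form a row of 14 direct neighbours on chromosome 19 in the RefSeq order, and 10 of them were measured. Cyp2c66, which follows Cyp2c65, Cyp2c67, which lies between Cyp2c38 and Cyp2c68, and Cyp2c40 and Cyp2c69, which precede Cyp2c37, were not analysed here. The first 2 genes, Cyp2c55 and Cyp2c65, differed by 5.35 and 1.76. Farther along, Cyp2c29, Cyp2c39, Cyp2c38 and Cyp2c68 differed by 0.44, -0.76, -0.11 and -0.07. Then Cyp2c37, Cyp2c54 and Cyp2c50, which follow each other, differed by 2.20, 2.05 and 1.22, and the last gene, Cyp2c70, by 0.06 ± 0.11. Over the 10 genes of the subfamily list 2 were called (0.0256% of all genes), 6 had an unadjusted p under 0.05 on the higher side (1.51% of all), 5 lay above the vehicle mice without overlap (0.358% of all) and the median change was 0.83. Cyp2c65 is among these 6 and these 5. With a vehicle mean below the floor it passed the filter through its PB arrays, so its place in these counts is no added support. The median was 0.97 without PB replicate 5 and 0.44 when probe sets that may bind several transcripts were left out. Binding of the probes of one Cyp2c gene to the transcripts of another was not tested.

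**Figure D2:**
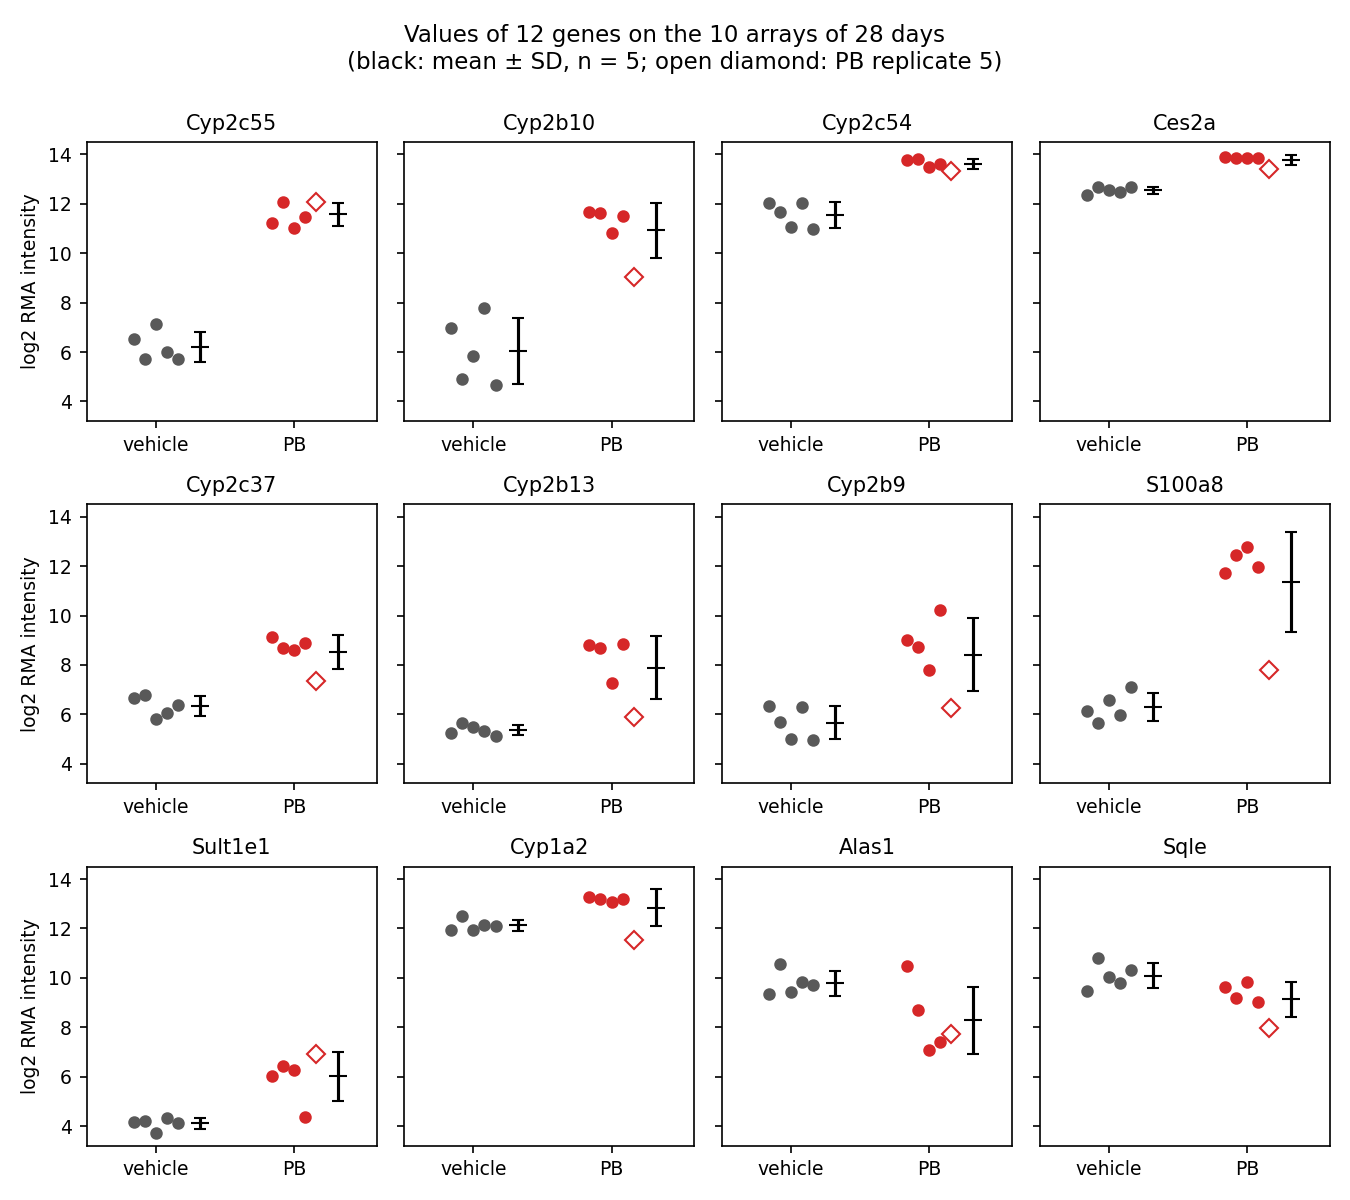
Log2 RMA intensity of 12 genes on each of the 10 arrays, with vehicle mice in grey and PB mice in red, and the mean ± SD of 5 mice in black. PB replicate 5 is an open diamond and was the lowest PB mouse for Cyp2b10 (9.03), S100a8 (7.80) and Cyp1a2 (11.52), but the highest for Cyp2c55 (12.07) and Sult1e1 (6.93).

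P450s outside subfamilies 2b and 2c gave no calls over the 10 arrays. Cyp1a2, which oxidises caffeine and aromatic amines, read 11.95, 12.50, 11.92, 12.16 and 12.12 in CMC and 13.28, 13.18, 13.08, 13.19 and 11.52 in PB. In PB, 4 mice lay close together above all vehicle mice, and PB replicate 5 was below all vehicle mice. The difference was 0.72 ± 0.31 over all arrays and 1.05 without PB replicate 5 (adjusted p = 0.00926 by limma, with 0.00926 to 1 over all settings). Cyp1a1, the main target of the aryl hydrocarbon receptor, differed by 0.01 ± 0.19. Cyp3a13 differed by 1.02 ± 0.32 (10.25 to 11.28), while Cyp3a11, the main hepatic 3a enzyme and a known target of CAR and the pregnane X receptor, went from 14.77 ± 0.04 to 14.88 ± 0.07 (SD, n = 5), a difference of 0.11 ± 0.06 near the top of the array's range.

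The medians of the remaining P450 lists were close to 0. The 17 genes of subfamilies 2d to 2u, which include Cyp2e1 (-0.04 ± 0.14) and Cyp2f2 (-0.36 ± 0.48), had a median of -0.04. Of them 0 passed the unadjusted threshold in either direction (1.51% of all genes higher and 0.895% lower). Without PB replicate 5 the median was 0.13 and 3 passed it on the higher side, Cyp2d10 (0.27 ± 0.14 over all arrays and 0.39 without that one), Cyp2d12 (0.93 ± 0.44 and 1.18) and Cyp2d9 (0.10 ± 0.32 and 0.43). Among 13 genes of families 1 and 4, Cyp1a2 alone passed it over all arrays and 2 did without PB replicate 5, and Cyp4a14, a fatty acid hydroxylase under control of PPAR alpha, differed by -0.36 ± 1.19. The P450s of sterols, bile acids and vitamins had a median of -0.07 over 15 genes, with 1 lower at the unadjusted threshold, or 3 lower and 1 higher without that array.

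Ces2a was the fourth called gene. It encodes a carboxylesterase of the endoplasmic reticulum that cleaves ester drugs. Its CMC values were 12.35, 12.68, 12.57, 12.50 and 12.68 and its PB values 13.91, 13.87, 13.85, 13.87 and 13.42. The groups did not overlap, and the treated mice other than PB replicate 5 were almost level. The mean rose from 12.56 ± 0.14 to 13.78 ± 0.20 (SD, n = 5), by 1.22 ± 0.12, or 2.34-fold (adjusted p = 0.00435 by limma). The call held in 10 of 10 removals of 1 array.

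The promoter windows of Cyp2c55, at chr19:39006769-39007018, and of Ces2a, at chr8:104733753-104734002, are given because these genes had the smallest p-values. Both are read on the plus strand and presented as above.
Cyp2c55: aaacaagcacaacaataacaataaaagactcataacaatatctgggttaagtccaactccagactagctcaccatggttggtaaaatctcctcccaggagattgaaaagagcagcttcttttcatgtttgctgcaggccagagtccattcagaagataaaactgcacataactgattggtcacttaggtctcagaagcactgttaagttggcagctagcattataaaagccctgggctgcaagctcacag
Ces2a: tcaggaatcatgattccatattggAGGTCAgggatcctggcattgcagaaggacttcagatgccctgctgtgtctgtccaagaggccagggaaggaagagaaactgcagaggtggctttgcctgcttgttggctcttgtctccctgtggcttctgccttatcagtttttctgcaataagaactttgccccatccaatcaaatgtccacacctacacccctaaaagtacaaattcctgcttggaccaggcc
Ces2a held 1 AGGTCA motif, starting 226 bases before its start, and Cyp2c55 held 0. No window for Cyp2c54 was used here.

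Other hydrolases differed less than Ces2a. Its direct neighbour Ces2b was higher by 0.49 ± 0.20 and Ces1d, a lipase and esterase of the liver, by 0.52 ± 0.17 (12.16 to 12.68). Ces2e, Ces2g and Ces4a, farther along the same row of genes, differed by -0.19, -0.15 and 0.02. Over 17 esterases and hydrolases 1 was called (0.0256% of all genes), 3 passed the unadjusted threshold on the higher side (1.51% of all), and the median was 0.07. The microsomal epoxide hydrolase Ephx1, a known CAR target, differed by 0.34 ± 0.24.

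Other oxidising and reducing enzymes gave few differences. Aldh1a7, a cytosolic aldehyde dehydrogenase, read 13.04, 12.88, 12.36, 13.04 and 13.07 in CMC and 13.25, 13.57, 13.23, 13.27 and 13.15 in PB. All treated mice were above all vehicle mice, by a narrow margin, and the difference was 0.42 ± 0.15. It alone passed the unadjusted threshold among 20 aldehyde and alcohol dehydrogenases, whose median was 0.01. Akr1b10 alone did so among 17 aldo-keto and carbonyl reductases (0.34 ± 0.15, median of the list 0.05), with 0 past it without PB replicate 5, and 0 of 10 flavin monooxygenases and other oxidases did (median -0.06).

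Sulfotransferases, which attach sulfate to steroids and phenols, were split. Sult1e1, the estrogen sulfotransferase, read 4.18, 4.20, 3.72, 4.32 and 4.11 in CMC and 6.04, 6.44, 6.27, 4.36 and 6.93 in PB. PB replicate 4 sat just above the highest vehicle mouse and the other treated mice were well above. The difference was 1.90 ± 0.38 (adjusted p = 0.366 by limma), and its vehicle mean lay 0.05 above the floor, so the size is not exact. Without PB replicate 4 it was 2.31 (adjusted p = 0.000857, with 0.000857 to 0.997 over all settings). Sult1c2 was higher by 1.29 ± 0.33, Sult1d1 by 1.01 ± 0.42 and Sult1a1, a phenol sulfotransferase, by 0.50 ± 0.16. These 4 passed the unadjusted threshold among 11 genes, against 1.51% of all genes on the higher side, and the list's median was -0.01. Papss1 and Papss2, which make the sulfate donor, differed by -0.60 ± 0.30 and -0.20 ± 0.42.

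Of 20 glutathione transferases 0 were called and 4 had an unadjusted p under 0.05, all on the higher side (1.51% of all genes), with a median of 0.06. Without PB replicate 5 there were 5 (1.99% of all) and the median was 0.10. Gstt3, of the theta class, read 9.44, 8.77, 7.44, 9.69 and 8.14 in CMC and 10.83, 10.04, 10.23, 10.61 and 9.23 in PB. PB replicate 5 overlapped the vehicle range, and the difference was 1.49 ± 0.44. Gstt1, its neighbour on chromosome 10, was higher by 0.80 ± 0.24, while Gstt4 and Gstt2, which follow in the same row, differed by -0.06 and -0.12. The alpha class gene Gsta2 was higher by 0.87 ± 0.30 and the mu class gene Gstm3 by 0.94 ± 0.41. For Gstm3, 4 treated mice read 11.66, 11.92, 11.60 and 11.71, above the vehicle range of 9.54 to 10.83, and PB replicate 5 read 9.74. The differences of Gstp1 (-0.15 ± 0.10) and the microsomal Mgst1 (0.01 ± 0.06) were near 0.

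Glucuronosyltransferases attach glucuronic acid, and the list measured covers families 2 and 3 and the supply of the donor, while the Ugt1a genes were not analysed here. Ugt2b1 read 13.62, 13.72, 13.60, 13.46 and 13.40 in CMC and 13.96, 13.95, 13.97, 13.93 and 13.43 in PB. Again 4 treated mice lay together above the vehicle mice, and PB replicate 5 read within the vehicle range. Its difference was 0.29 ± 0.12, or 0.39 without that array, and it alone passed the unadjusted threshold among 13 genes (median 0.08). The list of glutathione synthesis and NRF2 targets had 0 of 21 genes past that threshold, or 2 without PB replicate 5. Its largest differences, in the metallothioneins Mt1 (1.52 ± 1.02) and Mt2 (1.41 ± 1.14), were within the spread of the vehicle mice, which for Mt1 ran from 7.90 to 13.83. Among other conjugating enzymes, the N-acetyltransferase family member Nat8 differed by -0.74 ± 0.31.

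Among transporters, the export pump Abcc4 stood out. It read 5.77, 5.32, 5.30, 5.42 and 4.75 in CMC and 6.18, 6.57, 6.41, 6.60 and 5.90 in PB. The groups did not overlap, and the difference was 1.02 ± 0.19 (adjusted p = 0.267 by limma). Abcc3, which exports conjugates towards the blood, read between 10.28 and 10.83 on 4 PB arrays and 8.85 on PB replicate 5, against 8.89 to 10.18 in CMC. Its difference was 0.64 ± 0.40, or 0.99 without that array (unadjusted p = 0.00481). The bile salt pump Abcb11 differed by 0.10 ± 0.42. Over 16 exporters 1 passed the unadjusted threshold and the median was -0.01, against 4 genes and 0.28 without PB replicate 5. Among 13 uptake transporters 0 passed it and the median was -0.05, against 2 genes and 0.09 without that array. These were Slco1a4, a carrier of organic anions (0.42 ± 0.39 over all arrays and 0.71 without it), and the carnitine carrier Slc22a5 (0.27 ± 0.26 and 0.47).

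Heme is the cofactor of every P450, and Alas1 is the rate-limiting enzyme of its synthesis in the liver. Alas1 was lower, not higher, in most treated mice. Its CMC values were 9.33, 10.58, 9.43, 9.82 and 9.71 and its PB values 10.47, 8.70, 7.10, 7.42 and 7.71. PB replicate 1 was as high as the highest vehicle mice and the other 4 treated mice were below the vehicle range. The difference was -1.49 ± 0.56 (adjusted p = 0.9999 by limma), and it was called in 0 of the 22 settings tried. The second probe set gave -1.05. Of 16 genes of heme synthesis and breakdown 3 were positive, Alas1 alone passed the unadjusted threshold, and the median was -0.09.

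Bile acid synthesis begins with Cyp7a1, its rate-limiting enzyme. Cyp7a1 read 11.36, 10.25, 9.22, 10.97 and 10.80 in CMC and 10.17, 10.02, 8.66, 9.16 and 9.86 in PB. The groups overlapped, and the difference was -0.94 ± 0.41. It alone passed the unadjusted threshold among 19 genes of bile acid synthesis and feedback, whose median was 0.03, and Cyp8b1, which sets the share of cholic acid, differed by 0.19 ± 0.26. Without PB replicate 5 the median was 0.16, and 3 genes passed the threshold on the higher side beside Cyp7a1 (-1.02) on the lower. They were Nr0b2 (0.78), Cyp8b1 (0.42) and Slc27a2 (0.38, against 0.08 ± 0.30 over all arrays), a ligase of bile acids and long fatty acids.

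Genes of cholesterol synthesis were lower together, by small amounts. Of 21 genes tested 1 was positive, against 49.2% of all genes, 9 had an unadjusted p under 0.05 on the lower side (0.895% of all), 0 were called (0% of all called lower), and the median was -0.45. Sqle, the squalene epoxidase, read 9.47, 10.82, 10.02, 9.80 and 10.32 in CMC and 9.63, 9.18, 9.83, 9.02 and 7.99 in PB. The groups overlapped, with PB replicate 5 the lowest, and the difference was -0.96 ± 0.36. Lanosterol synthase Lss differed by -0.83 ± 0.28, Mvd of the mevalonate steps by -0.83 ± 0.34, farnesyl diphosphate synthase Fdps by -0.81 ± 0.33 and Hmgcs1, at the entry of the pathway, by -0.61 ± 0.24. Without PB replicate 5 the median was -0.32, with 8 genes lower at the unadjusted threshold, and it stayed between -0.53 and -0.32 when any 1 array was left out. The sterol element TCACNCCAC stood in 1 of the 17 promoter windows of the list, that of Hmgcs1, against 1.04% of all windows.

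Fatty acid synthesis gave a median of -0.20 over 25 genes, 2 of them positive, and at 28 days this direction rested on PB replicate 5. Without it the median was 0.09 with 18 of 25 positive. Thrsp, a regulator of lipogenesis, differed by -0.95 ± 0.41, or -1.06 without that array, and fatty acid synthase Fasn differed by -0.75 ± 0.62, or -0.21. In the separate mice of 90 days the median of the fatty acid synthesis list was -0.34, with 3 of 25 genes positive. Fatty acid oxidation and PPAR alpha targets had a median of -0.02 with 0 of 26 genes past the unadjusted threshold, and phospholipid synthesis, which is needed for new membranes, had -0.06 with 0 of 17, or 0.08 with 1 without PB replicate 5.

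**Figure D3:**
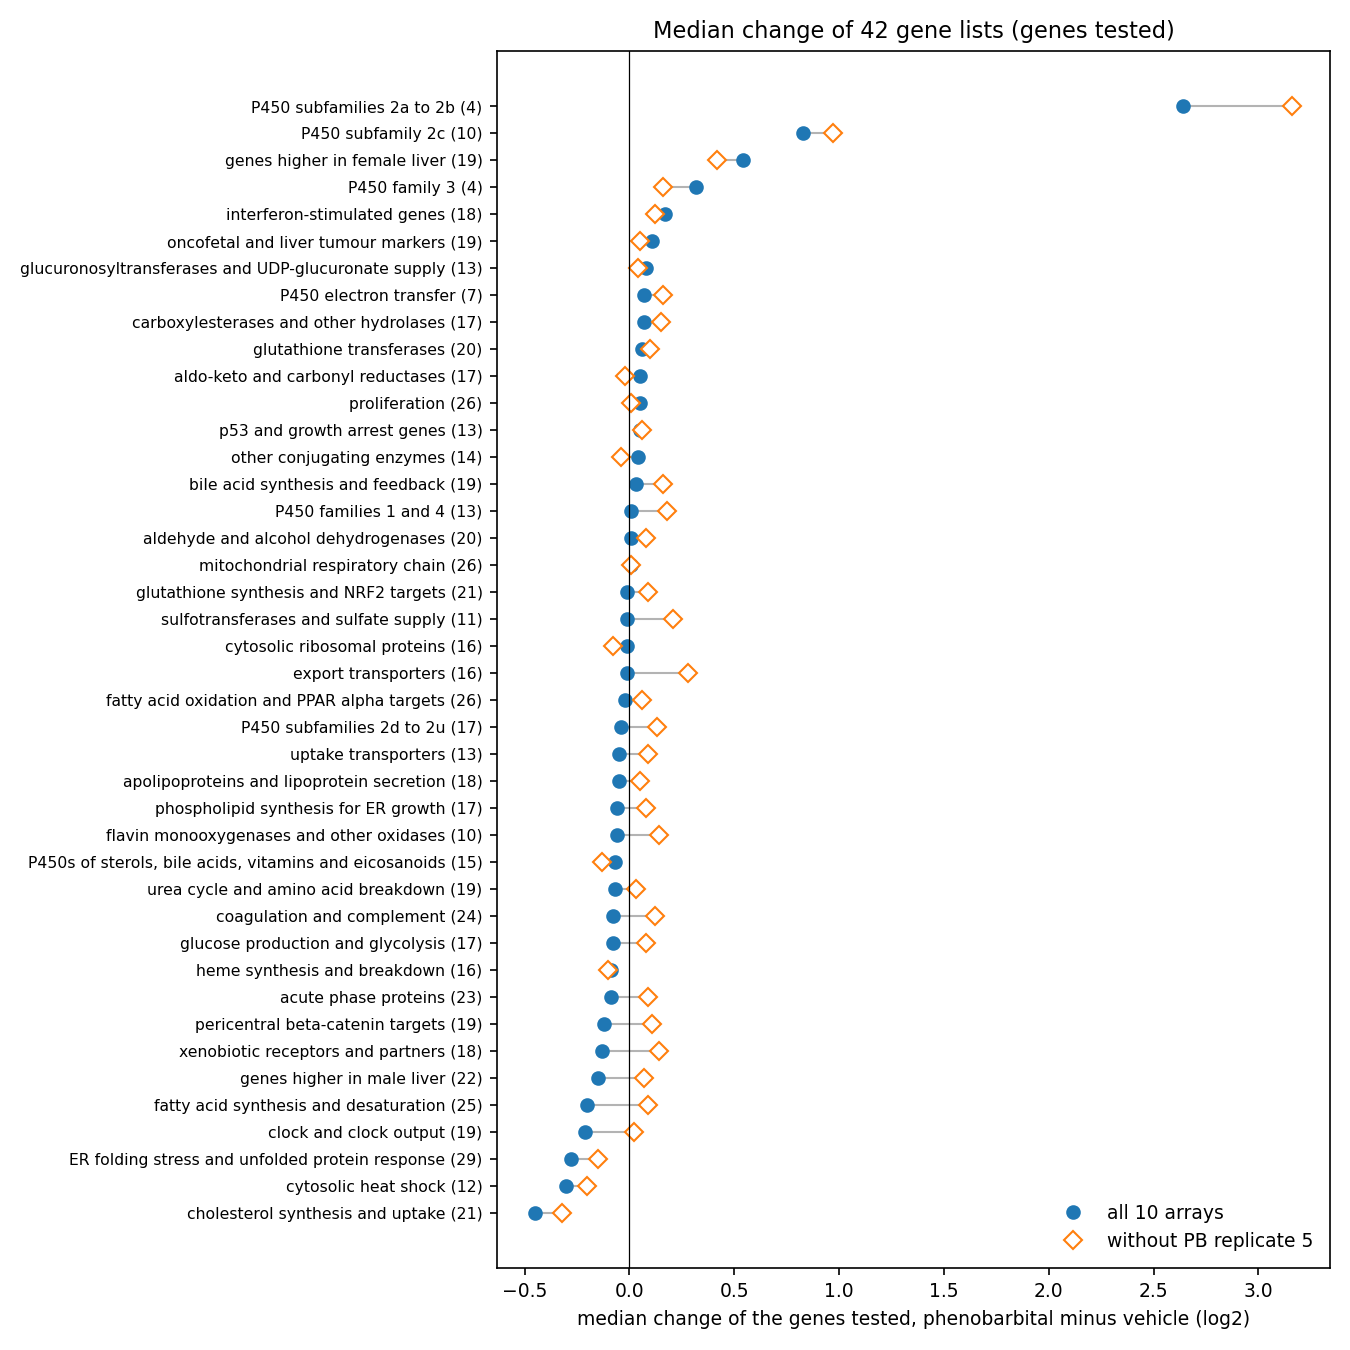
Median change (PB minus CMC, log2) of the genes tested in each of 42 gene lists, with the number of genes in parentheses, for all 10 arrays (filled circles) and without PB replicate 5 (open diamonds). The P450 2a to 2b list lies farthest to the right at 2.64 and cholesterol synthesis farthest to the left at -0.45, and fatty acid synthesis crosses 0, from -0.20 to 0.09.

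Chaperones of the endoplasmic reticulum (ER), which fold secreted proteins, were mostly a little lower. Of 29 genes 4 were positive, 1 had an unadjusted p under 0.05, and the median was -0.28. Sdf2l1, a cofactor of the ER chaperone BiP, read 9.90, 10.46, 10.96, 8.63 and 10.53 in CMC and 9.65, 8.95, 8.74, 8.77 and 9.01 in PB. CMC replicate 4 was below all treated mice and the other vehicle mice were above them, which gave -1.07 ± 0.39. Creld2, an ER stress gene with disulfide isomerase activity, differed by -1.27 ± 0.64, and Hspa5, which encodes BiP, by -0.40 ± 0.26. The list's level on PB replicate 5 was 0.98 below the vehicle mean, and without this array the median was -0.15 with 10 genes positive.

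The elements that ER stress factors are known to bind are shown because they mark a shared sequence in this list. The search used CCAAT and CCACG spaced by any 9 bases, on both strands of the 250-base windows, and each match is written in the direction of the element, with the fixed letters in capitals and the spacer in lower case.
Hspa5, chr2:34772025-34772043: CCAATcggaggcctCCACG
Hsp90b1, chr10:86705638-86705656: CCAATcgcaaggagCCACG
Hsp90b1, chr10:86705533-86705551: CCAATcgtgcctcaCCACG
Calr, chr8:84847075-84847093: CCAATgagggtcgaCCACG
Canx, chr11:50325800-50325818: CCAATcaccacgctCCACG
Pdia6, chr12:17266491-17266509: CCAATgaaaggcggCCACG
Dnajc3, chr14:118937827-118937845: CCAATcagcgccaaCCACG
Creld2, chr15:88819520-88819538: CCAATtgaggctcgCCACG
Syvn1, chr19:6046532-6046550: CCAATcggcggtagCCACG
Derl3, chr10:75893242-75893260: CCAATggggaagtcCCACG
The element stood in 9 of the 25 promoter windows found for this list (36%), in 33 of all 27025 windows (0.122%) and in 17 of the 12470 windows of genes tested (0.136%). The 9 genes that hold it had a median change of -0.38, from -1.27 to -0.12, and the 16 without it had -0.16, from -1.07 to 0.57. Without PB replicate 5 these medians were -0.16 and -0.04. These 9 genes were chosen for the list by function and their element says nothing of the factor's binding.

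Cytosolic heat shock genes had a median of -0.30 over 12 genes, with 1 positive. CMC replicate 3 stood high in this list, at 0.94 above the vehicle mean, and PB replicate 5 low, at -1.13. Hspb1, a small heat shock protein, differed by -0.81 ± 0.32, and without PB replicate 5 the list's median was -0.20.

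Genes known to be higher in female than in male mouse liver were mostly higher in treated males. Of 19 tested 16 were positive (49.2% of all genes), 9 had an unadjusted p under 0.05 (1.51% of all), 2 lay above the vehicle mice without overlap (0.358% of all), and the median was 0.54. Besides Cyp2b9, Cyp2b13, Sult1e1 and Gstt3, which other lists also hold, Hamp2, a hepcidin gene, was higher by 0.86 ± 0.32, the organic anion carrier Slc22a26 by 0.76 ± 0.20 and Hao2, a hydroxyacid oxidase, by 0.74 ± 0.26. Cux2, a transcription factor of female liver, differed by 0.09 ± 0.20, and Trim24 by -0.50 ± 0.37. The median without PB replicate 5 was 0.42, again with 9 genes past the unadjusted threshold. The 22 genes higher in male liver had a median of -0.15, or 0.07 without that array, and 1 of them, Ugt2b1, passed the threshold, on the higher side.

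Genes of growth arrest and growth showed single differences. Gadd45b, a stress gene known to respond to CAR activators, read 6.18, 5.92, 5.77, 6.04 and 6.22 in CMC and 6.23, 6.69, 6.25, 6.65 and 6.49 in PB. The lowest treated mouse was barely above the highest vehicle mouse, and the difference was 0.44 ± 0.14. Its other probe sets gave 0.90 and -0.04. Gadd45g differed by -1.41 ± 0.55, with vehicle values from 6.30 to 9.47 and treated values from 6.10 to 7.05. The p53 target Cdkn1a differed by -0.05 ± 0.21, and of 13 genes of this list 1 passed the unadjusted threshold in each direction (median 0.05). In the proliferation list Mki67 was higher by 0.35 ± 0.13 at a level 0.47 above the floor in CMC, Ccnd1 differed by -0.06 ± 0.14, and the median over 26 genes was 0.05. Myc differed by -0.64 ± 0.24 and Lgr5, a target of beta-catenin, by -0.53 ± 0.18, while the second probe set of Lgr5 gave 0.05.

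**Figure D4:**
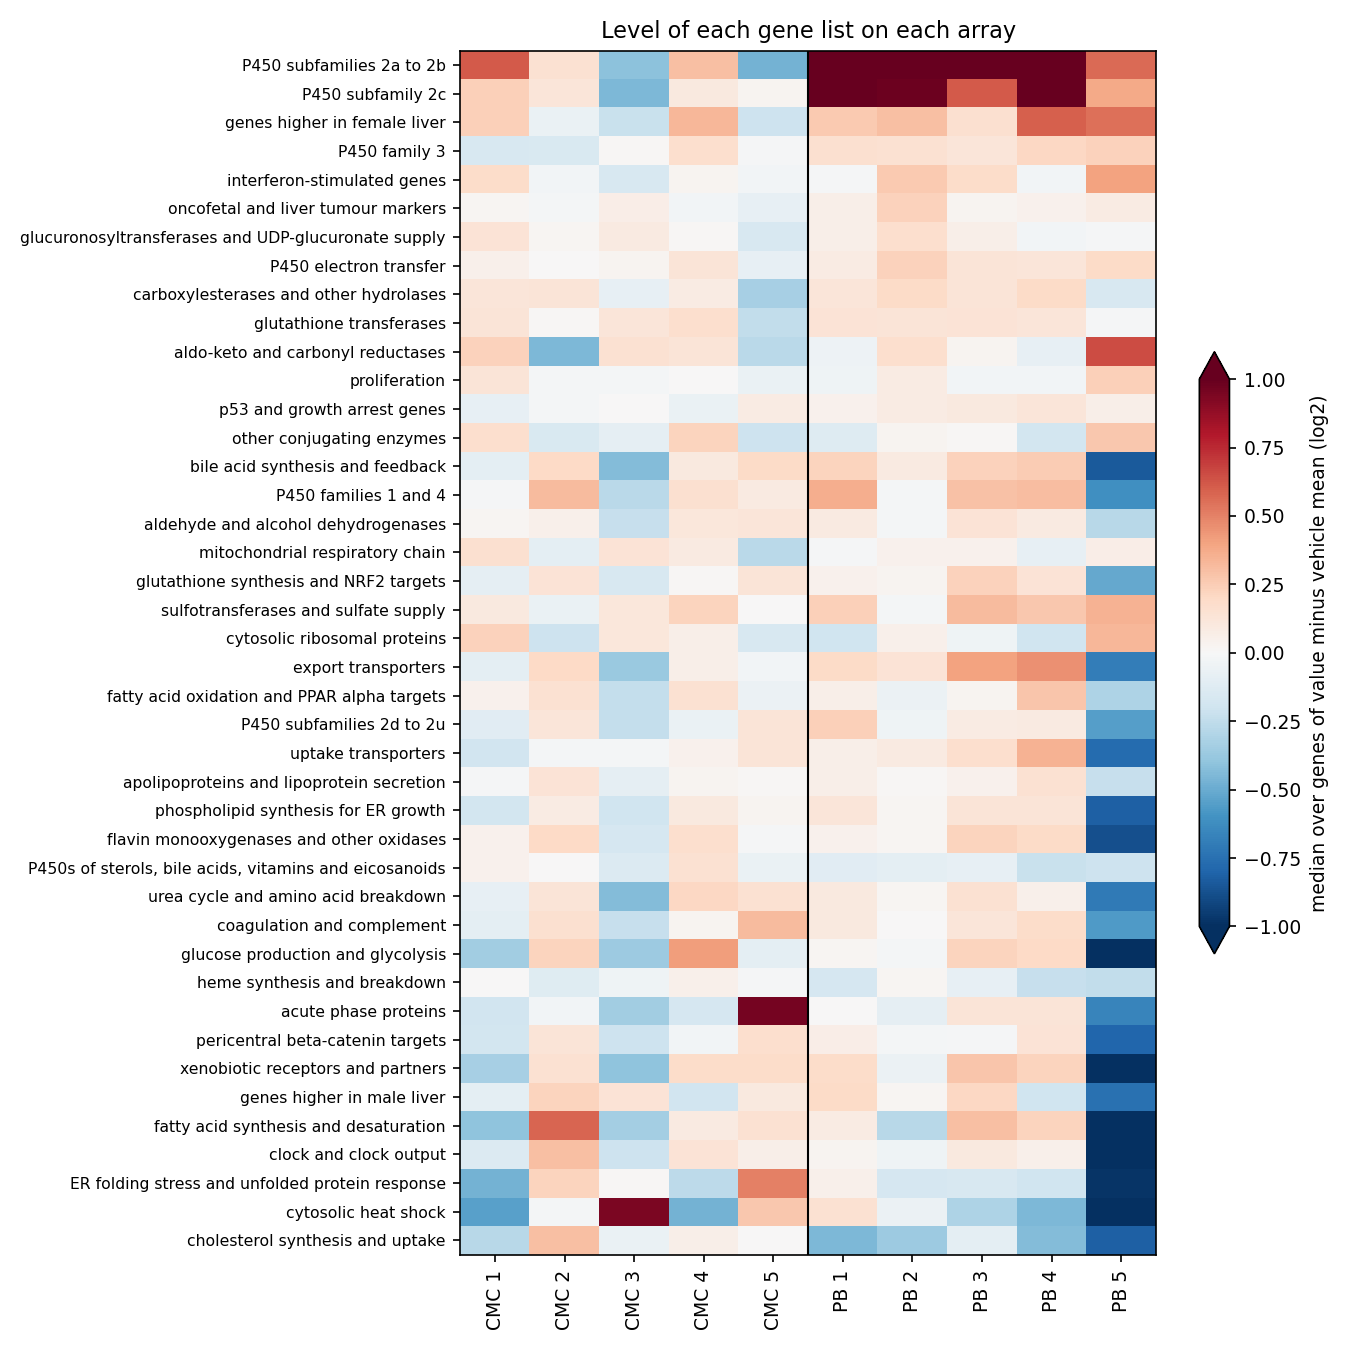
Level of each gene list on each of the 10 arrays, as the median over its genes of the value minus the vehicle mean (log2), with the colour scale clipped at its ends. PB replicate 5 is low in fatty acid synthesis (-1.61), receptors (-1.24) and cytosolic heat shock (-1.13), and CMC replicate 5 is high in acute phase proteins (0.96).

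S100a8, a calcium-binding protein stored in neutrophils, had the second largest difference of all genes. It read 6.13, 5.64, 6.59, 5.97 and 7.10 in CMC and 11.73, 12.46, 12.79, 11.95 and 7.80 in PB. The 4 other treated mice were far above all vehicle mice and PB replicate 5 was just above them. The difference was 5.06 ± 0.79, or 33.3-fold (adjusted p = 0.0894 by limma). Without PB replicate 5 it was 5.95 (adjusted p = 6.9e-06, with 6.9e-06 to 0.551 over all settings). Its partner S100a9, with which it forms a dimer in neutrophils, averaged 6.51 in CMC and 6.36 in PB, a difference of -0.15 ± 0.36. Of 11 neutrophil markers tested 9 were positive (49.2% of all genes), and the median was 0.20. On the higher side 3 had an unadjusted p under 0.05 (1.51% of all), namely S100a8, Mmp8 by 0.31 ± 0.10 and Csf3r by 0.32 ± 0.14. Mmp8 averaged 0.14 below the floor in CMC (-0.14) and 0.12 above it in PB, so its difference is not a measured size. As its mean was above the floor in PB alone, its place in these counts is no added support. The granule genes Mpo and Elane each differed by 0.20, at vehicle means of 4.94 and 5.07. The marker sum of 9.57 to 12.88 in PB and 8.79 to 9.24 in CMC ran with S100a8 itself, which read 11.73 to 12.79 where the sum was 11.90 to 12.88. Whether its probe set measures other transcripts was not tested.

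Markers of other cell types differed less. Kupffer cell and macrophage markers summed to 12.13 to 12.96 in PB and 11.63 to 12.87 in CMC, with 11 of 12 positive and a median of 0.19, or 0.07 without PB replicate 5. Marco, a scavenger receptor of these cells, differed by -0.43 ± 0.17, while its second probe set gave 0.12. Krt19, a bile duct keratin, was higher by 0.27 ± 0.12 and Pnliprp1, a pancreatic lipase-related protein, by 0.60 ± 0.17. The pancreas markers together summed to 11.32 to 11.82 in PB and 11.21 to 11.97 in CMC. Acute phase proteins had a median of -0.09 over 23 genes. CMC replicate 5 held Lcn2 at 13.65, against 5.54 to 6.58 in the other vehicle mice and 5.27 to 8.97 in the treated ones. Orm3 alone passed the unadjusted threshold in that list, with 6.68, 6.55, 6.64, 6.19 and 8.28 in CMC and 8.04, 8.25, 8.01, 7.44 and 8.54 in PB and a difference of 1.19 ± 0.36. Its vehicle value on CMC replicate 5 lay among the treated values.

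A difference of 2-fold or more was found for 31 genes higher (0.198%) and 19 lower (0.121%). Of these genes, picked by size, 27 of the higher and 12 of the lower had an unadjusted p under 0.05 by limma. Among the 31 higher, 11 were in none of the lists. Serpinb1a, an inhibitor of neutrophil proteases, read 6.25, 6.55, 6.40, 6.81 and 3.99 in CMC and 8.74, 7.68, 7.67, 8.19 and 8.50 in PB, a difference of 2.15 ± 0.47 without overlap. Dio1, the deiodinase that activates thyroid hormone, read 10.17, 9.84, 8.90, 5.92 and 7.34 in CMC and 10.72, 10.13, 10.04, 11.09 and 11.40 in PB. Treated mice were all high and vehicle mice scattered from below 6 to above 10, so that the groups overlapped, which gave 2.24 ± 0.71. Nebl, an actin-binding protein, differed by 2.41 ± 0.51 and Meig1 by 1.51 ± 0.36, from vehicle levels 0.21 above and 0.41 below the floor, so these sizes are not exact. The others were Cnmd (1.78), Gm10419 (1.69), Ppp1r42 (1.46), Depp1 (1.29), Gpat3 (1.18), Arrdc3 (1.14) and Nsl1 (1.09). Ppp1r42 had a vehicle mean below the floor (-0.05), so its size is not exact. Its PB values were 4.36, 6.14, 4.68, 3.91 and 8.21, and without PB replicate 5 it differed by 0.77. Gpat3 read 5.43 to 8.70 in CMC and 8.11 to 8.88 in PB, so that its groups overlapped (unadjusted p = 0.0999 by limma). 4931406C07Rik came close to a call at 0.95 ± 0.14 (adjusted p = 0.0721 by limma), with 11.53 to 12.16 in CMC and 12.63 to 13.04 in PB. Cpe, a carboxypeptidase of prohormones, differed by 0.90 ± 0.14 (adjusted p = 0.0894), and was called without CMC replicate 1 (adjusted p = 0.0394, with 0.0164 to 0.9999 over all settings).

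Among the 19 lower genes 12 were in none of the lists and 1, Nucb2, did not overlap. Nucb2, the precursor of the peptide nesfatin, differed by -1.23 ± 0.39, and Csad, an enzyme of taurine synthesis, by -1.43 ± 0.42. The widest difference outside the lists was that of Corin, a serine protease that processes natriuretic peptides, at -1.52 ± 0.61. Its values were 5.72, 6.10, 6.29, 7.75 and 6.22 in CMC and 6.70, 3.36, 5.92, 3.66 and 4.84 in PB, and the groups overlapped, with 2 treated mice below the floor, so its size is not exact. Without PB replicate 5, 10 of the 19 were still at 2-fold or more, against 28 of the 31 higher genes. Smaller differences without overlap were those of the host transcript Snhg14 (-0.84 ± 0.13, adjusted p = 0.0894 by limma), Nap1l3 (-0.81 ± 0.14, adjusted p = 0.171), the fatty acid binding protein Fabp5 (-0.89 ± 0.20) and the serine synthesis enzyme Psph (-0.70 ± 0.17). Rabl3 (-0.93 ± 0.21), Tmod4 (-0.60 ± 0.15) and Gm15527 (-0.55 ± 0.13) completed the 8 lower genes with the smallest p-values, together with Pkhd1, a gene of bile duct cilia (-1.04 ± 0.29). The PB mean of Snhg14 lay 0.07 above the floor, so the size of its difference is not exact.

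The 90-day mice were other animals with their own vehicle group, and served to ask how often a 28-day difference was seen again. Of the 236 genes higher at 28 days at the unadjusted threshold, 198 were positive at 90 days (83.9%, against 55.7% of all genes), and 58 were again higher at that threshold. These 58 were 24.6% of the 28-day genes and 10.6% of the 549 higher at 90 days (3.51% of the genes tested). Of the 140 lower genes, 104 were negative at 90 days (74.3%, against 44.3% of all genes) and 19 again lower at the threshold, which was 13.6% of the 28-day genes and 4.38% of the 434 lower at 90 days (2.78%). With the 28-day genes chosen without PB replicate 5, the shares with the same sign were 70.1% of 311 higher and 50% of 222 lower genes. At the threshold 57 (18.3%) were again higher and 13 (5.86%) again lower. The median of these lower genes at 90 days was 0.00, against 0.03 over all genes. The 31 genes 2-fold higher were all positive at 90 days, 26 of them at an unadjusted p under 0.05, while Arrdc3 (0.04) and Cnmd (0.22) were near the vehicle level. Of the 19 lower 18 were negative, with Obp2a (-2.68), Csad (-1.56) and Socs3 (-1.47) past the unadjusted threshold. The list medians at 90 days were -0.32 for cholesterol synthesis, -0.44 for ER folding and 0.36 for genes higher in female liver. Kupffer cell markers were at 0.19 at 28 and -0.27 at 90 days and interferon-stimulated genes at 0.17 and -0.07. Fatty acid oxidation was at -0.02 and -0.34, with 10 of its 26 genes lower at the unadjusted threshold at 90 days.

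The change itself was compared between durations in a limma fit of all 20 arrays. It called 0 genes with a larger (0%) and 0 with a smaller effect at 90 days, with 141 (0.902%) and 70 (0.448%) at an unadjusted p under 0.05. Cyp2c55 differed from vehicle by 5.35 at 28 and 5.18 at 90 days, Ces2a by 1.22 and 1.28 and Cyp2c54 by 2.05 and 2.02, and the differences between durations were -0.17 ± 0.42, 0.06 ± 0.14 and -0.03 ± 0.30. Cyp2b10 was at 4.90 and 5.88, a difference of 0.99 ± 0.88. Sult1e1 had the smallest p of all genes, with 1.90 at 28 and 4.71 at 90 days, a difference of 2.81 ± 0.51 (adjusted p = 0.336). Nap1l3 (-0.81 and 0.20), Rabl3 (-0.93 and 0.12) and Snhg14 (-0.84 and -0.05) were lower in PB at 28 days and near the vehicle level at 90 days, with an adjusted p of 1 for each difference.

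**Figure D5:**
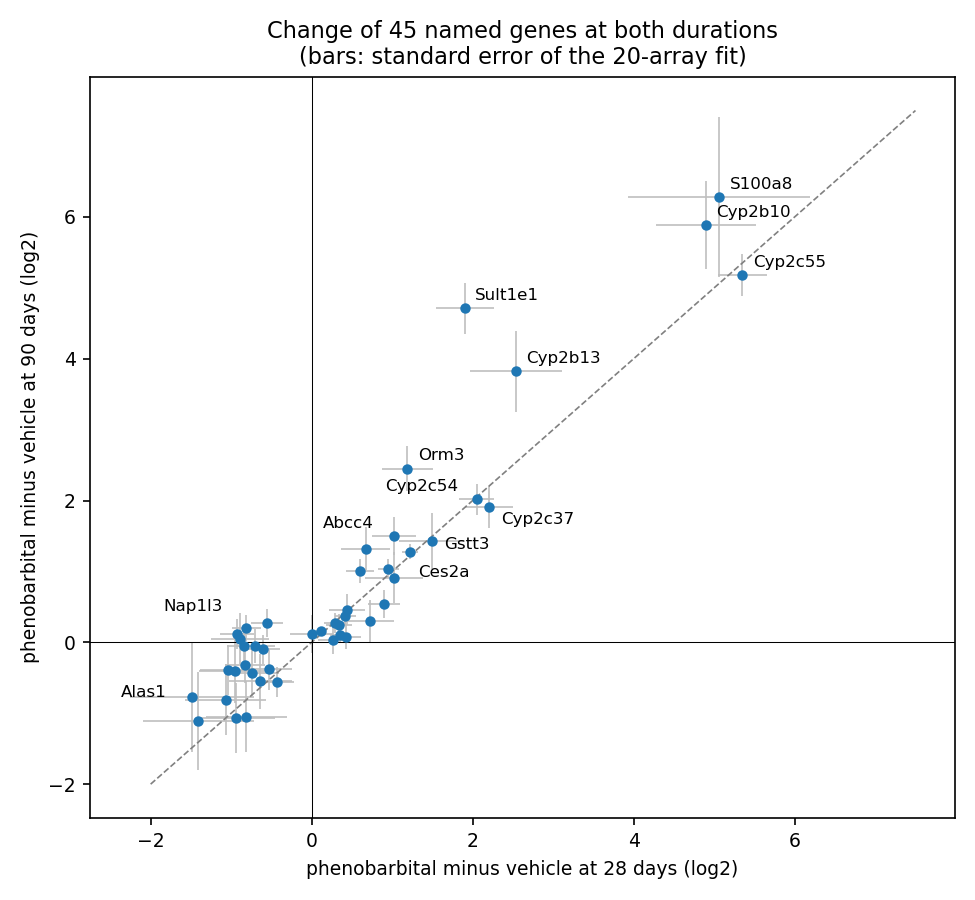
Change at 90 days against change at 28 days (PB minus CMC, log2) of 45 named genes, with bars for the standard error of the 20-array fit and a dashed line where both are equal. Cyp2c55, Cyp2c54 and Ces2a lie on the line, Sult1e1 above it (1.90 and 4.71), and Nap1l3 is at -0.81 and 0.20.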

How the data were processed

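Liver RNA of 20 male CD1 mice was measured, 1 mouse per array, and 10 arrays entered this comparison. Per the submitters' processing notes, the log2 values that the authors deposited come from RMA. Its version is not given in the sources used here, nor is a build. The number of arrays, 5 per group, limits the precision.

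Of 45037 probe sets, 34945 carried 1 gene symbol in the platform annotation of 2016, 932 several and 9160 none. Probe sets with 1 symbol were used, and where a gene had several, the probe set with the greatest average across all 20 arrays stood for it. Of 18193 genes measured, 15638 lay above their array's 25th percentile (4.01 to 4.26) on at least 5 of 10 arrays and were tested, and 2555 did not. RefSeq held the Entrez ID of 18032 genes.

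A linear model with trended empirical Bayes moderation was fitted (limma 3.58.1, R 4.3.3), with p-values adjusted by Benjamini and Hochberg over all genes tested. It was tested on simulated data. The 53 lists (42 pathway, 11 cell marker) hold 912 genes, 761 of them tested, and the members, lists and comparison were chosen with earlier results of these data known. Named genes are every called gene, the 8 higher and 8 lower with the smallest p, the best higher and lower member of each pathway list and the best of each marker list with an unadjusted p under 0.05, and Cyp2b10, Cyp2c55, Cyp3a11, Cyp1a2, Nr1i3, Alas1 and Gadd45b. The rule also held Por, which was not analysed here. Other genes, the 2-fold genes and the recurrence at 90 days were chosen after their values were seen. Promoter windows are from RefSeq, build GRCm38.p6. Sums of markers are log2 of summed intensities. Alternatives changed the filter, the choice of probe set, the arrays fitted, array weights, scaling, the trend and each array in turn. Figures were drawn with matplotlib 3.10.9 (Python 3.11.15).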

Additional observations from a re-analysis of the deposited data

Results flagged for a closer look

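In 92 groups of 5 arrays (named genes and array scores, each group at 28 days), 11 held 1 array far from the other 4 by Dixon's criterion, which chance meets in about 1 of 20 groups. PB replicate 5 was that array in 6 of them. It read 13.42 for Ces2a against 13.85 to 13.91 in the other PB mice, 7.34 for Cyp2c37 against 8.61 to 9.12, and 7.80 for S100a8 against 11.73 to 12.79. For Cyp1a2 it read 11.52 against 13.08 to 13.28, and for Ugt2b1 13.43 against 13.93 to 13.97. Its first component score was -99.1 against -4.0 to 30.2.

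The other 5 were spread over 4 mice. CMC replicate 3 read 8.24 for Psph against 7.63 to 7.81 and 12.36 for Aldh1a7 against 12.88 to 13.07. CMC replicate 5 read 8.28 for Orm3 against 6.19 to 6.68, and CMC replicate 4 read 7.05 for Marco against 6.23 to 6.47. PB replicate 4 read 6.73 for Prom1, a stem cell surface protein, against 5.09 to 5.37.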

How the results depend on the processing

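The count of 4 called genes became 8 with all 4 groups in the fit, 15 with array weights, 7 with centring on the 75th percentile, 8 with cyclic loess and 20 with the first principal component as a covariate, an alternative chosen after seeing the data. All 4 genes were called under each of these. Without the intensity trend 3 genes were called, and Cyp2b10 was not among them. Leaving out 1 array gave 2 to 13 calls, the lowest without PB replicate 2 and the highest without PB replicate 5. The 376 genes at an unadjusted p under 0.05 became 245 with a filter at the 50th percentile, 682 when each probe set was tested singly, 659 with array weights, 227 with centring on the 75th percentile and 1048 (451 higher, 597 lower) with the first component, and 299 to 533 without 1 array. The 85 genes without overlap became 152 with probe sets tested singly, which tests more features, and 136 to 249 without 1 array, where fewer arrays have to be separate. Centring on the 75th percentile moved the median of all genes to 0.05 and cyclic loess to -0.01.

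Nr1i3, at 0.00, changed sign to -0.16 with array weights, -0.10 with the first component, and ranged from -0.24 to 0.14 without 1 array, below 0 without CMC replicate 2 (-0.07), CMC replicate 5 (-0.24), PB replicate 2 (-0.05) or PB replicate 5 (-0.16). For the named genes 931 of the values recomputed kept direction and side of the threshold, 31 passed it newly and 11 no longer did. The cause of these shifts was not tested. With 5 mice a group, genes near the array floor and genes whose vehicle mice differ widely were measured least precisely.

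Mice share replicate numbers across groups, and no label states that these numbers pair mice. Same-numbered arrays correlated at -0.60 to 0.26 and 1 of 10 arrays was closest to its own number. So few arrays cannot exclude a block shared by number. With the replicate number as a block 3 genes were called and 273 had an unadjusted p under 0.05. Ces2a lost its call there (adjusted p = 0.249, with 4.32e-07 to 0.249 over all settings).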

Other observations

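Lists of general liver function lay near the vehicle level. Clock genes had a median of -0.21 over 19 genes and 0.02 without PB replicate 5, on which the list stood at -1.07 from the vehicle mean. At 90 days the median of the clock list was -0.36, with 5 of 19 genes positive. Per2, a core clock repressor, differed by -0.63 ± 0.35. Coagulation and complement (-0.08, 24 genes), apolipoproteins (-0.05, 18 genes), glucose production and glycolysis (-0.08, 17 genes) and the urea cycle with amino acid breakdown (-0.07, 19 genes) each had 0 genes at an unadjusted p under 0.05 by limma, against 1.51% higher and 0.895% lower of all genes. Without that array their medians were 0.12, 0.05, 0.08 and 0.03. Ribosomal proteins (-0.01) and the mitochondrial respiratory chain (0.01) also had 0.

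Interferon-stimulated genes had a median of 0.17 over 18 genes. Gbp2, a guanylate-binding protein, was the 1 past the unadjusted threshold, at 5.26 ± 0.31 (SD, n = 5) in CMC and 5.69 ± 0.10 in PB, and Rsad2 differed by 0.37 ± 0.24. Among pericentral targets of beta-catenin (median -0.12, 19 genes), glutamine synthetase Glul differed by -0.35 ± 0.26 and Axin2 by 0.08 ± 0.21. Liver tumour markers had a median of 0.11 over 19 genes, with 2 past the unadjusted threshold on the higher side, Prom1 (0.67 ± 0.28) and alpha-fetoprotein Afp (0.33 ± 0.15), and Myc on the lower. Meg3, a noncoding RNA known to be raised by phenobarbital in mouse liver, differed by 0.47 ± 0.25. Markers of endothelial cells (0.06), stellate cells (0.07), bile ducts (0.02), erythroid cells (0.02) and adipocytes (0.04) had medians near 0.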
